A study of Mus musculus with 11 samples.

Results

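Nanog and 8 further genes that come on late in reprogramming were followed across all 11 arrays of a study of mouse embryonic fibroblasts (MEFs) on their way to pluripotency. The genes were chosen by name as a list of late pluripotency genes, with earlier results of these data known. They were Nanog, Nr0b1, Utf1, L1td1, Esrrb, Zfp42, Dppa5a, Tdh and Gdf3, and each was read from the probe set that carries its symbol. Of the 9 genes, 8 had a probe set among the 19938 genes of the table, each of them 1, and Tdh, the threonine dehydrogenase of mouse embryonic stem cells, had none and was not analysed here. The comparison of interest was which reprogramming cassettes raised each gene by day 6 and which left it at background.

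The fibroblasts were male F1 hybrids taken at 13.5 days of gestation, carried the doxycycline-responsive transactivator rtTA at the ROSA locus and a Nanog-GFP reporter on a bacterial artificial chromosome, and received piggyBac transposons, which a transposase inserts into the genome, followed by doxycycline at 1 µg/mL in embryonic stem cell medium. In the first group, 8 transposons each carried a polycistronic reprogramming cassette (OKMS, OK+9MS, OKN-HAMS, OSKM, MKOS, STEMCCA, WTSI and EB-C5), and cells positive for the linked mCherry reporter were sorted on day 6. In the second, 2 transposons carried Klf4 alone, as the forms Klf4S and Klf4L (titled Klf4 and Klf4+9), with the same day and sort. The third was 1 population with lacZ, harvested on day 2 without the sort, so that effects of day, sort and transgene cannot be told apart wherever lacZ is compared. With 1 array for each construct, p-values measure the spread between different constructs and not between repeated cultures. Cassettes other than OKMS and OK+9MS have no stated form of Klf4 in the labels, so no grouping by form was made. All arrays held bulk RNA of whole populations, in which fewer cells expressing a gene and less RNA per cell cannot be told apart. The number of arrays limits the precision. All 14 fibroblast markers on a fixed list, collagens, Thy1 and Pdgfra among them, read above background on all 11 arrays.

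Pluripotent cells are held in their state by a network of transcription factors around Oct4 (Pou5f1), Sox2 and Nanog, which bind each other's genes. During reprogramming of fibroblasts, adhesion and surface genes such as Cdh1 and Alpl are known to come on early, and Nanog, Esrrb, Zfp42 (Rex1) and Utf1 only later, in the few cells that go on to become induced pluripotent stem cells. Nanog marks this step so well that reporters such as the one in these fibroblasts were built on it.

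Promoter windows from 250 bases before to 50 bases after the transcription start were given for 6 of the 9 genes (RefSeq, GRCm38.p6). Nanog and Esrrb had 2 windows each, and positions of genes below are from the same annotation. Windows are shown for 3 genes that most cassettes raised and for Zfp42, which none raised. Capitals mark the motifs searched on both strands, which were TTTGCAT for Oct4, ACAATG and ACAAAG for Sox factors, GGGTGTG and GGGCGTG for Klf factors, AAGGTCA for Esrrb and TATAAA. No capitals overlap another motif.
Nanog, chr6:122707315-122707614, plus strand: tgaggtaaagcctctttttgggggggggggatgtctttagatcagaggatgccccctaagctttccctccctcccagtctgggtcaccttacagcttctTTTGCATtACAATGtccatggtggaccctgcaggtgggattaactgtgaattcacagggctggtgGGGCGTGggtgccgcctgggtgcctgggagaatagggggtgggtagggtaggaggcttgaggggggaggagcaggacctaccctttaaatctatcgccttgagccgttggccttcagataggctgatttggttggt
Nr0b1, chrX:86191525-86191824, plus strand: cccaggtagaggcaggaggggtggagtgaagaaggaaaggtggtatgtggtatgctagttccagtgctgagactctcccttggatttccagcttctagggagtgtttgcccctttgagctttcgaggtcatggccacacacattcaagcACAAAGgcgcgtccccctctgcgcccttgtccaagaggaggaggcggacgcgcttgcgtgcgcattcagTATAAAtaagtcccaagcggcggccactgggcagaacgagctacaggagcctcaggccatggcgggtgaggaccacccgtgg
L1td1, chr4:98726504-98726803, plus strand: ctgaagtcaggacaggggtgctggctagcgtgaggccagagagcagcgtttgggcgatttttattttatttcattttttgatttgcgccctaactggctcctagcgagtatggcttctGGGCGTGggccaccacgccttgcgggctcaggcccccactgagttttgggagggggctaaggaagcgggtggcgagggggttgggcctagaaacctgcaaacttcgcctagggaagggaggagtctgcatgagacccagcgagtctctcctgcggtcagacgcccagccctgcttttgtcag
Zfp42, chr8:43306960-43307259, minus strand: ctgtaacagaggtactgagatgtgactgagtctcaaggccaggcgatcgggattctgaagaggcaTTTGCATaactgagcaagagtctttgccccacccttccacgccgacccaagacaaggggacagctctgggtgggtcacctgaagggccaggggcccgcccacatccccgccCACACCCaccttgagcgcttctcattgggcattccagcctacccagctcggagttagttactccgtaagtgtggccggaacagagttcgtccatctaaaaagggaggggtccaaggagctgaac

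In the Nanog window shown TTTGCAT lay from -151 to -145 and ACAATG from -143 to -138, counted from that window's start site, with GGGCGTG from -86 to -80. Counted from the start site of the other Nanog window, the same motifs lay from -75 to -69, -67 to -62 and -10 to -4. Of 32851 windows of the same length, 4.63% held TTTGCAT, 12.6% ACAATG and 8.44% GGGCGTG. Only 0.17% held TTTGCAT within 3 bases of either Sox motif, a distance chosen after the Nanog window was seen. The Nr0b1 window held ACAAAG (18.7% of windows) and TATAAA (13.6%), and the L1td1 window GGGCGTG. The Zfp42 window held TTTGCAT as well, from -185 to -179, and GGGTGTG on the opposite strand (7.95% of windows). Raised and unraised genes both held motifs of the reprogramming factors, and the Utf1 window (chr7:139943606-139943905) held none of the motifs searched. A match of letters shows no binding. AAGGTCA, present in 4.72% of windows, was in none of the members' windows. Of the 2 Esrrb windows, the first held GGGTGTG and ACAATG and the second no motif.

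The values are log2 RMA signals, on which 1 unit is a 2-fold difference, and large differences can be understated in them. As background level of an array, the 95th percentile of 1194 olfactory and vomeronasal receptor genes was taken, which lay between 6.18 and 6.32 on all 11 arrays. Since probe sets differ in brightness, this level is a rough floor and not a detection limit for a given gene. A gene was counted as activated by a cassette where it read above that array's background and at least 1 log2 unit above the highest of the 3 arrays without a cassette. By this rule, 26 of the 64 pairs of member and cassette were activated, 40.6%, against 1.91% of pairs over all genes. At least 1 cassette activated 5 of the 8 members and 5.43% of all genes. The members were chosen with earlier results of these data known, so these contrasts with all genes are not a test of the list. The 26 fell on L1td1, Nanog, Nr0b1, Utf1 and Esrrb, and none on Zfp42, Dppa5a or Gdf3. In the Klf4S and Klf4L arrays 0 of 8 members rose by that much over lacZ, where 1.87% and 1.99% of all genes did.

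**Figure D1:**
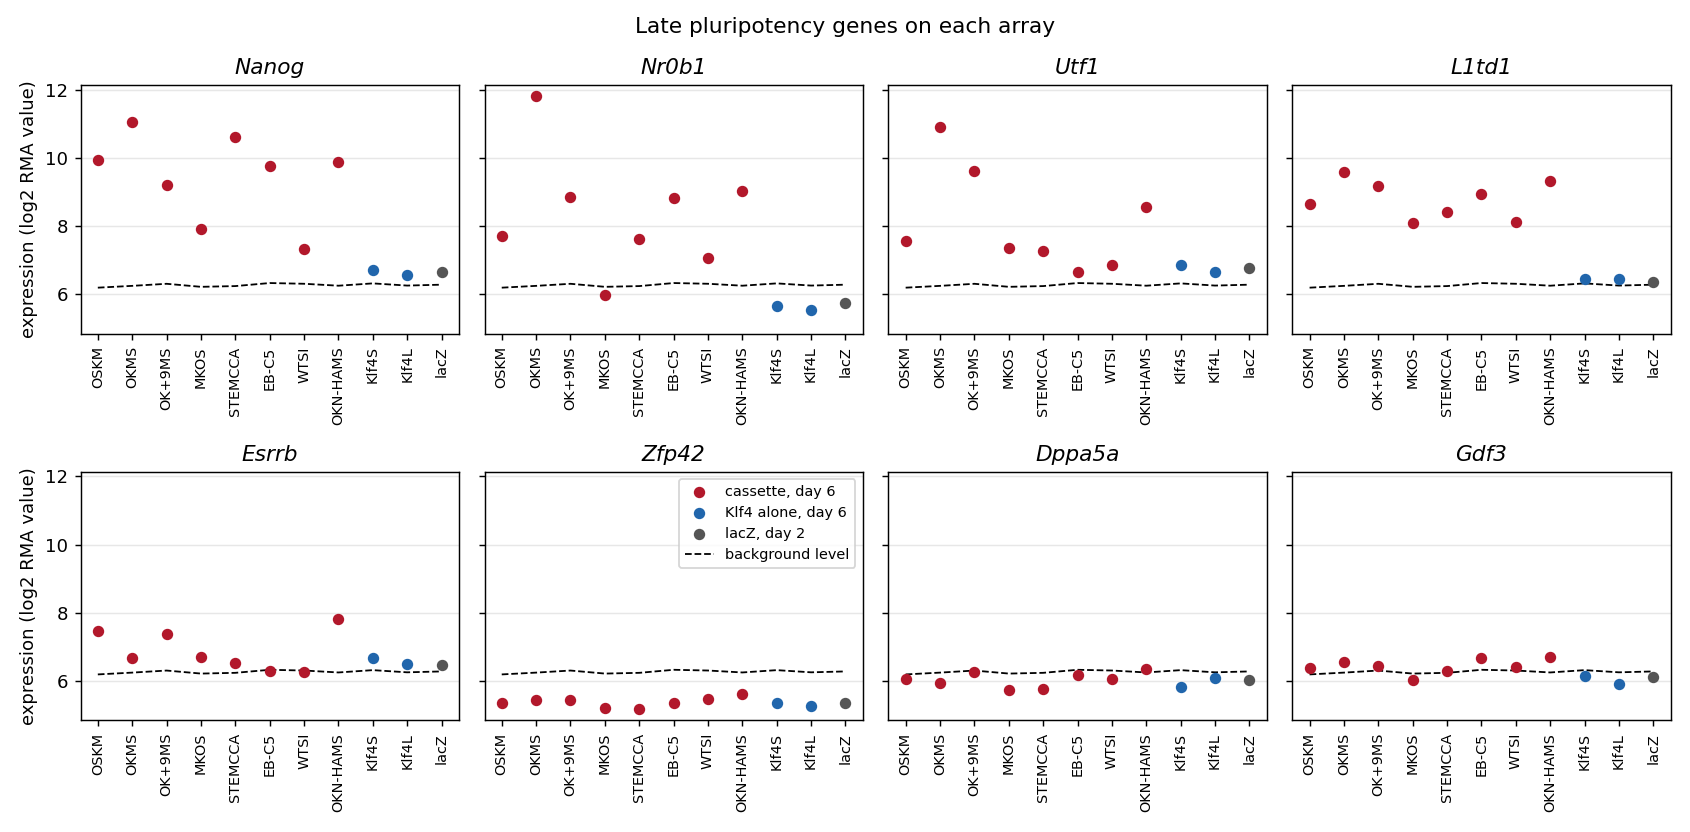
Log2 RMA value (vertical axis) of the 8 measured genes on each of the 11 arrays (horizontal axis), with cassettes in red, Klf4 alone in blue and lacZ in grey; each point is 1 array and the dashed line is the array's background level. L1td1 lies between 8.07 and 9.60 in the cassettes and at 6.45 or lower elsewhere, while Zfp42 stays under the line on every array.

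Nanog, the homeobox factor at the centre of the pluripotency network (chromosome 6, 122707489 to 122714633), was activated by 7 of 8 cassettes. It read 11.05 in OKMS, 10.60 in STEMCCA, 9.93 in OSKM, 9.87 in OKN-HAMS, 9.76 in EB-C5, 9.20 in OK+9MS, 7.92 in MKOS and 7.33 in WTSI, against 6.69 (Klf4S) and 6.57 (Klf4L) for Klf4 alone and 6.65 for lacZ. All 8 cassettes lay above all 3 other arrays, as they did for 5.26% of all genes, and WTSI was the lowest of them with a rise of only 0.64. The rise in OKMS was 4.36, or 20.5-fold. OSKM stood 0.06 above OKN-HAMS and that 0.11 above EB-C5, both less than the SD of 0.126 by which the 2 Klf4 arrays differed over all genes. The labels give no probe positions, so whether the Nanog probe set also reads transcripts of the Nanog-GFP reporter, which all 11 populations carry, was not tested. On the 3 arrays without a cassette it read no more than 6.69, 0.38 above background at most.

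Over the group, Nanog averaged 9.46 ± 1.27 in the cassettes (SD, n = 8), 6.63 in Klf4 alone (n = 2) and 6.65 in lacZ (n = 1). The difference from Klf4 alone was 2.83 ± 0.86 (SE), with a limma adjusted p of 0.0544, just short of the 0.05 threshold. It passed in 5 of 17 settings, which were without MKOS (adjusted p = 0.0329), without WTSI (0.0278), with a variance trend (0.0445), with dim genes left out (0.0393) and with arrays centred on their median (0.0485). In the other settings it did not pass, with the highest limma adjusted p without Klf4S (0.273) or Klf4L (0.257). Against lacZ the difference was 2.81 ± 1.15 (limma adjusted p = 0.278), with no pass under any alternative. The spread among cassettes, 3.72 from lowest to highest, was wider than for 99.6% of all genes, whose median range was 0.47.

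Nr0b1 (Dax1), an orphan nuclear receptor that partners with Oct4 and Nanog in embryonic stem cells (chromosome X, 86191775 to 86195947), varied most between cassettes. It read 11.81 in OKMS, 9.02 in OKN-HAMS, 8.83 in OK+9MS, 8.83 in EB-C5, 7.71 in OSKM, 7.61 in STEMCCA, 7.07 in WTSI and 5.96 in MKOS, against 5.66 (Klf4S) and 5.53 (Klf4L) for Klf4 alone and 5.74 for lacZ. OKMS stood 2.79 above the next cassette, and MKOS read at background, with -0.25 relative to its array's level. Since all 3 arrays without a cassette read under background, rises have lower bounds only: at least 45.2-fold in OKMS, 6.55-fold in OKN-HAMS, 5.75-fold in OK+9MS and 5.72-fold in EB-C5 over the highest background level of those arrays. In WTSI the same bound was 1.69-fold, the smallest among the 7 cassettes that activated it. The range over the cassettes, 5.84, exceeded that of 99.975% of genes. With such a spread the mean difference did not pass the test, at 2.76 ± 1.17 from Klf4 alone (limma adjusted p = 0.143) and 2.62 ± 1.57 from lacZ (limma adjusted p = 0.495).

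Esrrb, an orphan nuclear receptor that sustains self-renewal as a target of Nanog (chromosome 12, 86361117 to 86521628), was activated by 1 cassette. It read 7.82 in OKN-HAMS, 7.47 in OSKM, 7.36 in OK+9MS, 6.71 in MKOS, 6.68 in OKMS, 6.51 in STEMCCA, 6.28 in EB-C5 and 6.25 in WTSI, against 6.68 (Klf4S) and 6.48 (Klf4L) for Klf4 alone and 6.45 for lacZ. Only OKN-HAMS cleared the rule, with a rise of 1.14, and EB-C5 and WTSI read below their background level. OSKM (0.79) and OK+9MS (0.68) lay just short of it; a rise of 1.5-fold would count all 3, and lacZ as sole reference would count OSKM too. OKMS, the cassette with the highest Nanog and Nr0b1, left Esrrb at the Klf4S level. The group differences were 0.30 ± 0.40 from Klf4 alone and 0.43 ± 0.54 from lacZ (limma adjusted p = 0.688 and 0.825).

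Zfp42 (Rex1), a zinc finger protein long used as a marker of the naive pluripotent state (chromosome 8, 43295067 to 43307009), stayed at background everywhere. It read between 5.16 in STEMCCA and 5.60 in OKN-HAMS, against 5.35 (Klf4S) and 5.25 (Klf4L) for Klf4 alone and 5.35 for lacZ, and lay below background on all 11 arrays. Its range over the cassettes, 0.43, was close to the 0.47 of the median gene.

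Utf1, a chromatin-associated factor largely restricted to pluripotent and germ cells (chromosome 7, 139943856 to 139945112), was activated by 3 of 8 cassettes. It read 10.89 in OKMS, 9.61 in OK+9MS, 8.55 in OKN-HAMS, 7.55 in OSKM, 7.34 in MKOS, 7.25 in STEMCCA, 6.84 in WTSI and 6.64 in EB-C5, against 6.84 (Klf4S) and 6.64 (Klf4L) for Klf4 alone and 6.75 for lacZ. OKMS, OK+9MS and OKN-HAMS activated it, by 4.05 (16.6-fold), 2.77 and 1.71, and WTSI read level with Klf4S and EB-C5 below it. STEMCCA, second for Nanog, had Utf1 only 0.41 above Klf4S. The group difference was 1.34 ± 1.01 from Klf4 alone and 1.33 ± 1.35 from lacZ (limma adjusted p = 0.432 and 0.753).

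L1td1, an RNA-binding protein derived from a LINE-1 element and expressed in embryonic stem cells (chromosome 4, 98726754 to 98738486), was the 1 member that every cassette activated, and 0.241% of all genes were activated by all 8. It read 9.60 in OKMS, 9.33 in OKN-HAMS, 9.16 in OK+9MS, 8.93 in EB-C5, 8.65 in OSKM, 8.41 in STEMCCA, 8.12 in WTSI and 8.07 in MKOS, against 6.45 (Klf4S) and 6.43 (Klf4L) for Klf4 alone and 6.34 for lacZ. All 8 cassettes lay above all 3 other arrays, as for 5.26% of all genes, and the lowest cassette, MKOS, still stood 1.63 above Klf4S. The cassettes averaged 8.78 ± 0.56 (SD, n = 8), a narrower spread than the 1.27 to 1.74 of Nanog, Utf1 and Nr0b1 and close to the 0.59 of Esrrb. The L1td1 range over the cassettes, 1.52, was still wider than for 94.4% of all genes.

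L1td1 also was the only member called in the group tests: 1 of 8 members against Klf4 alone, where 14.5% of all genes were called (6.35% higher, 8.12% lower), and 1 of 8 against lacZ, where 2.05% were (0.456% higher, 1.59% lower). It rose by 2.34 ± 0.38 over Klf4 alone (SE, limma adjusted p = 0.00772) and by 2.45 ± 0.51 over lacZ (limma adjusted p = 0.0460). The call against Klf4 alone was lost without Klf4S (limma adjusted p = 0.111) or Klf4L (0.0981). That against lacZ was lost without OSKM (0.0737), OK+9MS (0.0736), EB-C5 (0.0656), OKN-HAMS (0.0588) or either Klf4 array (0.0856 each), and the difference itself stayed between 2.33 and 2.55. At an unadjusted p under 0.05 there were 4 of 8 members and 30.6% of all genes against Klf4 alone, and 2 of 8 members and 15.5% of all genes against lacZ. Between Klf4 alone and lacZ limma called 0 of 8 members, with 0 at an unadjusted p under 0.05 and 0.747% of all genes called (0.271% higher, 0.476% lower). The largest of these differences was -0.15, for Nr0b1. The members' median difference was 0.88 from Klf4 alone, 0.88 from lacZ and -0.03 between Klf4 alone and lacZ, against -0.02, -0.01 and 0.00 over all genes.

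**Figure D2:**
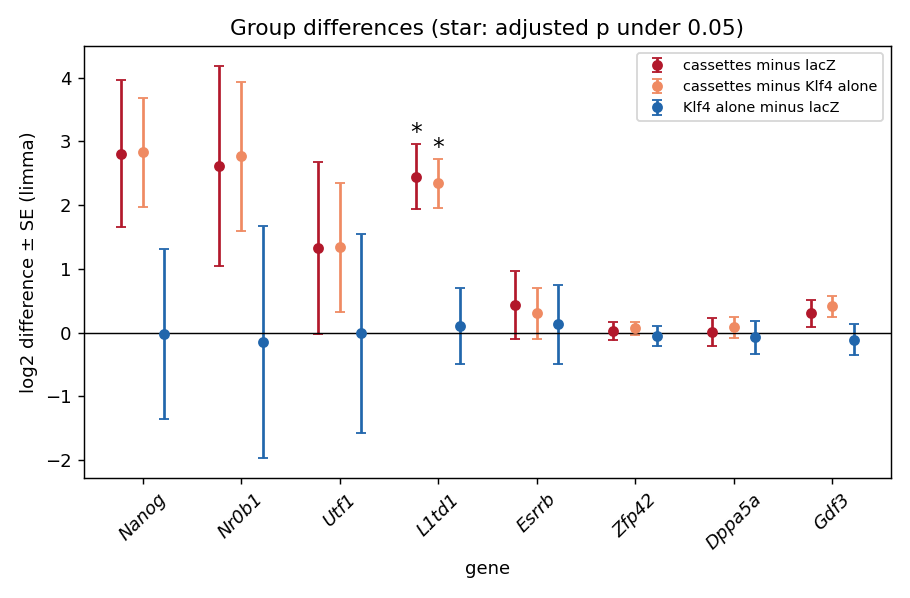
Log2 difference with its limma SE (vertical axis) for each gene (horizontal axis) between the cassettes (n = 8) and lacZ (n = 1), the cassettes and Klf4 alone (n = 2), and Klf4 alone and lacZ; a star marks an adjusted p under 0.05. L1td1 alone carries stars, at 2.45 and 2.34, while Nanog and Nr0b1 have differences of 2.62 to 2.83 with wider errors.

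Dppa5a, an RNA-binding protein of the early embryo and embryonic stem cells (chromosome 9, 78367052 to 78368199), read between 5.71 in MKOS and 6.34 in OKN-HAMS, against 5.81 (Klf4S) and 6.09 (Klf4L) for Klf4 alone and 6.02 for lacZ. The groups overlapped, and only OKN-HAMS exceeded its background level. Pseudogene copies of Dppa5a and Nanog are known in the mouse genome, and whether the probe sets separate them was not tested.

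Gdf3, a TGF-beta family ligand of pluripotent cells (chromosome 6, 122605403 to 122610087), differed little. It read from 6.02 in MKOS to 6.70 in OKN-HAMS, with a median of 6.42, against 6.13 (Klf4S) and 5.90 (Klf4L) for Klf4 alone and 6.12 for lacZ. All cassettes but MKOS lay above the other arrays, where it was below background, and the highest, OKN-HAMS, stood 0.39 above the highest background level of those arrays. The difference of 0.41 ± 0.16 from Klf4 alone did not pass (limma adjusted p = 0.111), except without MKOS (0.47, adjusted p = 0.0308).

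**Figure D3:**
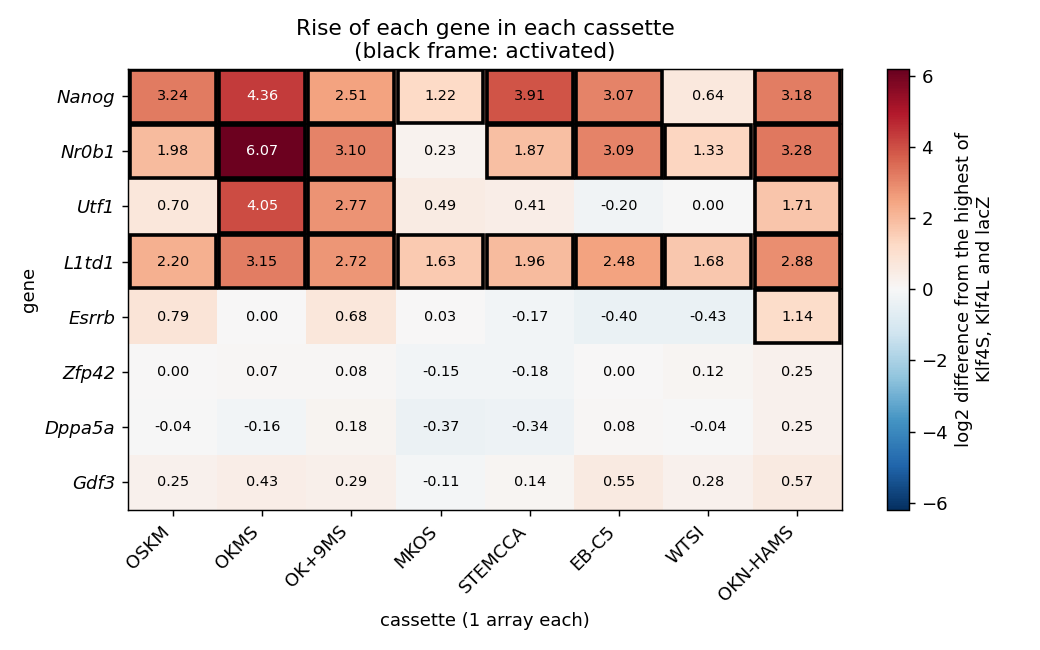
Log2 difference of each gene (rows) in each cassette (columns, 1 array each) from the highest of the Klf4S, Klf4L and lacZ arrays; a black frame marks activation. Frames fill the L1td1 row, leave out WTSI for Nanog and MKOS for Nr0b1, and take in OKMS, OK+9MS and OKN-HAMS for Utf1.

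By cassette, OKN-HAMS activated 5 of the 8 measured members (2.73% of all genes), adding Esrrb to the 4 that OKMS (2.39%) and OK+9MS (2.29%) activated, which were Nanog, Nr0b1, Utf1 and L1td1. OSKM (2.46%), EB-C5 (2.06%) and STEMCCA (0.592%) activated 3 each, Nanog, Nr0b1 and L1td1. MKOS (1.26%) activated Nanog and L1td1, and WTSI (1.49%) Nr0b1 and L1td1. STEMCCA activated the fewest genes of the 8 cassettes but had the second highest Nanog. The 3 cassettes that activated Utf1 also activated Nanog, Nr0b1 and L1td1.

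The members did not order the cassettes alike. Nr0b1 and L1td1 placed the 8 cassettes in the same order, from OKMS down to MKOS (Spearman's rho = 1, Pearson's r = 0.92, and r = 0.97 without the 2 cassettes farthest from the Nr0b1 median). Nanog followed Nr0b1 less closely (rho = 0.57, r = 0.72, and 0.48 without the 2 cassettes farthest from the Nanog median). Against the Pou5f1 signal, which lay between 11.89 and 13.22 in the cassettes and can be that of the transgene, r was 0.72 for L1td1 (rho = 0.88), 0.67 for Nr0b1 (rho = 0.88), 0.53 for Utf1 (rho = 0.60) and 0.09 for Nanog (rho = 0.19), and 0.55, 0.53, 0.21 and -0.22 in that order without the 2 cassettes farthest from each member's median. For Esrrb r was 0.30 (rho = 0.24), and 0.16 without the 2 farthest. Members that no cassette activated, with signals near or below background, gave 0.86 (Zfp42, rho = 0.71), 0.75 (Dppa5a, rho = 0.61) and 0.75 (Gdf3, rho = 0.86). Without the 2 farthest these were 0.83, 0.06 and 0.71. By r over all 8 cassettes, these unactivated members lay above every activated one. These coefficients describe 8 single arrays that share RNA, labelling and normalization across genes.

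OKMS and OK+9MS differ, by their labels, in the extension of Klf4 that also separates Klf4L from Klf4S. With the extension, Nr0b1 read 8.83 in OK+9MS against 11.81 in OKMS, a difference of -2.97 (7.86-fold lower), and only 2 of 19938 genes had a lower difference. Nanog read 9.20 against 11.05 (-1.85) and Utf1 9.61 against 10.89 (-1.28), with 19 and 82 genes lower. So 3 of 8 members were at least 1 unit lower in OK+9MS, where 0.878% of genes were, and 0 were higher by that much, where 2.3% were. The difference was -0.43 for L1td1 and 0.68 for Esrrb. Between Klf4L and Klf4S all 8 members differed by 0.28 or less in size and 0.0% of genes by 1 unit or more in either direction. None of the 8 members was activated on either Klf4 array, so this pair could not show a drop like that in OK+9MS. With 1 array each, no difference has a replicate check.

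**Figure D4:**
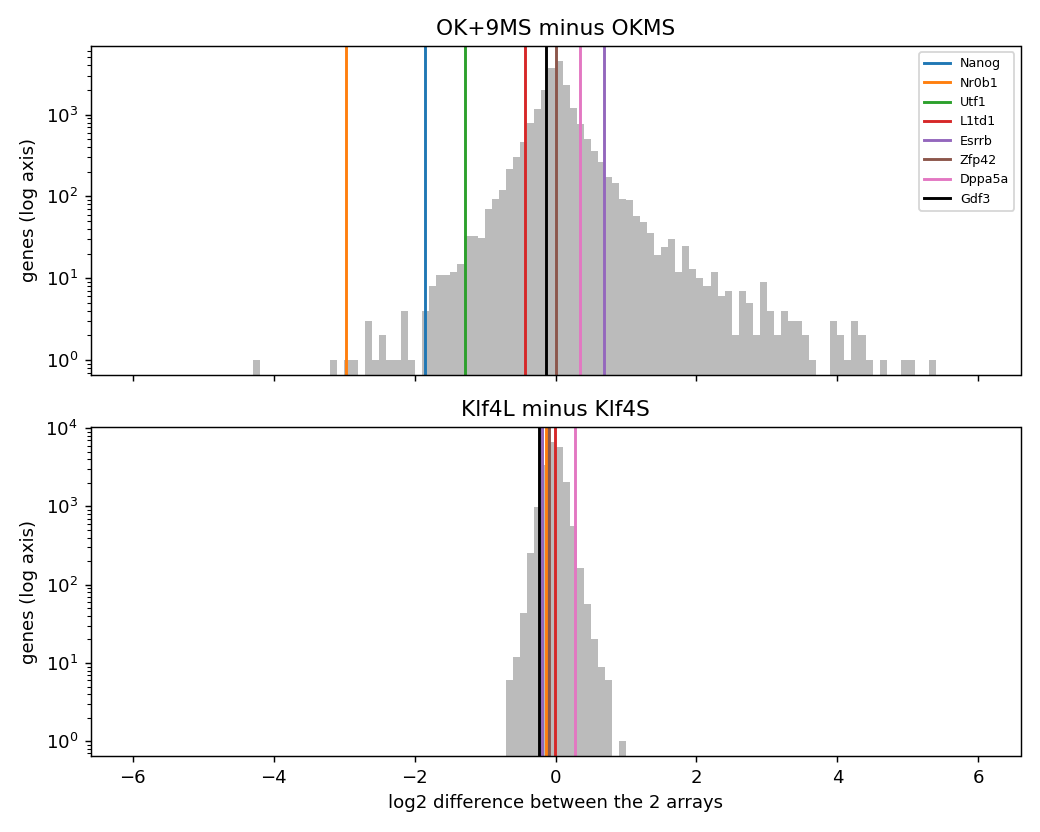
Distribution over 19938 genes of the log2 difference OK+9MS minus OKMS (top) and Klf4L minus Klf4S (bottom), with counts on a log axis and a coloured line for each member. Nr0b1 at -2.97, Nanog at -1.85 and Utf1 at -1.28 lie in the lower tail of the top panel, and all lines lie within 0.28 of 0 in the bottom panel.

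In a second list of 24 late pluripotency genes, of which 22 were measured, 6 were activated by at least 1 cassette, where 5.43% of all genes were. Of the 22, 3 were activated by at least 2 cassettes, where 3.55% of all genes were, and 0 by all 8. Differences between the lists were not tested. Rif1, a replication timing factor, was activated by 5 and rose by 1.68 ± 0.29 over Klf4 alone (limma adjusted p = 0.00903). Zscan10, a zinc finger factor of embryonic stem cells, was activated by OSKM, OKMS, OK+9MS and OKN-HAMS and read from 6.90 to 8.65 in the cassettes, against 6.70 (Klf4S) and 6.70 (Klf4L) for Klf4 alone and 6.37 for lacZ. Fgf4, a growth factor gene that Oct4 and Sox2 are known to drive, was activated by OKMS (8.99), OKN-HAMS (8.21) and OK+9MS (8.12), the same cassettes as Utf1, against 7.02 or less in Klf4 alone and 6.82 in lacZ. Of the 22, 1 was called higher and 1 lower against Klf4 alone, where 6.35% and 8.12% of all genes were. Against lacZ 0 were called higher and 1 lower, where 0.456% and 1.59% of all genes were. The lower ones were Lefty1, a Nodal inhibitor (-0.36 ± 0.10 against Klf4 alone, limma adjusted p = 0.0373), and Klf2 (-0.62 ± 0.12 against lacZ, limma adjusted p = 0.0380). For Klf2 the difference of Klf4 alone from lacZ was similar (-0.60), and that of the cassettes from Klf4 alone was -0.02. Lefty1 read 0.60 higher in Klf4 alone than in lacZ, and the cassettes lay 0.23 above lacZ. The list's median difference was 0.05 from Klf4 alone and 0.09 from lacZ. Dppa2 and Dppa3, further late genes, were among 5 that stayed at background on all 11 arrays.

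Of 15 early pluripotency genes, 11 were activated by at least 1 cassette, where 5.43% of all genes were. At least 2 cassettes activated 9 of the 15, and all 8 activated 2, where 3.55% and 0.241% of all genes were. The median difference of the 15 was 1.08 from Klf4 alone and 1.26 from lacZ. Bex1, an adaptor protein, read at least 8.14 in every cassette, against at most 5.72 elsewhere, and rose by 3.88 ± 0.38 over Klf4 alone (limma adjusted p = 0.000982), a fitted difference from arrays where Bex1 read below background. Alkaline phosphatase, Alpl, rose by 2.98 ± 0.58, the adhesion molecule Epcam, below background without a cassette, by a fitted 3.12 ± 0.89 and the demethylase Tet2 by 1.45 ± 0.42 over Klf4 alone (limma adjusted p = 0.0137, 0.0460 and 0.0494). E-cadherin, Cdh1, was activated by 6 cassettes and Lin28a by 4. Of the 15, 6 were called higher against Klf4 alone (6.35% of all genes) and 1 against lacZ (0.456%), in comparisons that share the cassette arrays.

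Tdh was not read, but other genes of threonine and glycine breakdown were. Over all genes, 0.241% were activated by all 8 cassettes, and 6.35% were called higher against Klf4 alone. Gldc, the glycine cleavage decarboxylase, was activated by all 8 cassettes, reading 8.42 to 10.01 with a median of 9.05, against 6.44 (Klf4S) and 6.66 (Klf4L) for Klf4 alone and 6.73 for lacZ. It rose by 2.50 ± 0.38 over Klf4 alone (limma adjusted p = 0.00592). Gcat, which acts on the product of Tdh, was activated by 4 cassettes and rose by 1.51 ± 0.29 (limma adjusted p = 0.0125). Of the 6 measured genes on the list 2 were called higher against Klf4 alone and 0 against lacZ by limma, where 2 had an unadjusted p under 0.05 and Gldc had an adjusted p of 0.0551. Without Klf4S or Klf4L, the calls of Gldc, Gcat, Rif1, Alpl, Epcam, Tet2 and Lefty1 against Klf4 alone were lost, with a highest limma adjusted p between 0.107 (Gldc) and 0.293 (Lefty1), while Bex1 passed under all 16 alternatives (0.0334 at most). Leaving out single cassettes also ended the calls of Epcam (OSKM, OKMS, OK+9MS, MKOS or OKN-HAMS), Tet2 (any but MKOS and STEMCCA), Lefty1 (OKMS, OK+9MS, EB-C5, WTSI or OKN-HAMS) and, against lacZ, Klf2 (OSKM, OKMS, OK+9MS, OKN-HAMS or either Klf4 array; 0.0744 at most).

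Markers of other early cell types gave the following values beside the members. Over all genes, 5.43% were activated by at least 1 cassette and 3.55% by at least 2. Against Klf4 alone 6.35% of all genes were called higher and 8.12% lower, and against lacZ 1.59% were called lower. Among 9 germ cell and 2-cell genes, Kit was the 1 activated by at least 2 cassettes, and 6 stayed at background on all arrays. Of 10 trophoblast genes 4 were activated by at least 2 cassettes, Krt8, Krt18, Tfap2c and Esx1, and Gata3 fell by 2.64 ± 0.38 against lacZ (limma adjusted p = 0.00981). Klf4 alone read Gata3 1.52 below lacZ, and the cassettes lay 1.12 ± 0.28 below Klf4 alone (limma adjusted p = 0.0310). That call was lost without Klf4S or Klf4L. Krt8 read 10.97 (Klf4S) and 11.23 (Klf4L) for Klf4 alone against 8.02 in lacZ, and lower than Klf4 alone in STEMCCA (9.2), EB-C5 (9.3) and WTSI (9.2). Krt18 read lower than Klf4S (8.35) and Klf4L (8.39) in these cassettes (7.2, 7.2 and 7.7) and in OKMS (7.6). Cdx2, Eomes, Elf5 and Gata3 were activated by no cassette, and Hand1 and Ascl2 by OSKM alone. Of 8 primitive endoderm genes 0 were activated, and Gata6 was lower by 1.24 ± 0.17 than in Klf4 alone (limma adjusted p = 0.00400). Its difference from lacZ was -0.35, and Klf4 alone read 0.88 above lacZ. Of 7 primed pluripotency genes only Dnmt3b was called higher against Klf4 alone (0.77 ± 0.22, limma adjusted p = 0.0449). In that list 3 genes were higher and 4 lower than in Klf4 alone (median difference -0.006), and 1 higher and 6 lower than in lacZ. The summed level of the 14 fibroblast markers was 150.6 to 163.6 in the cassettes, 168.2 to 168.5 in Klf4 alone and 153.8 in lacZ. In Klf4 alone 12 of the 14 were higher than in lacZ, and in the cassettes 7 were higher and 7 lower. Called lower against Klf4 alone were 3 of 14, Col3a1, Col1a2 and Fbln2, whose differences from lacZ were 1.16, 0.18 and -0.54. The calls of Gata6, Dnmt3b and these 3 were lost without Klf4S or Klf4L (limma adjusted p of 0.0803, 0.263 and up to 0.276 at the highest), and those of Dnmt3b and the 3 also without OSKM, WTSI or OKN-HAMS (Dnmt3b, Col3a1 and Col1a2 without OKMS, OK+9MS or EB-C5 too). Their part in the members' levels was not tested.

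Genes that varied most like the members over the 10 day-6 arrays were looked up among 4598 genes spanning at least 1 unit. For Nanog these were Zcchc8 (r = 0.95), the cell cycle kinase Cdk2 (0.94) and the amino acid transporter Slc7a3 (0.93), and only Slc7a3 was itself activated, by all 8 cassettes, at 9.41 to 12.40 against at most 8.01 elsewhere. For Nr0b1 they were the guanylate cyclase subunit Gucy1b1 (0.98), the arginine methyltransferase Prmt7 (0.95) and Rnf220 (0.95). Utf1 was followed by Znhit3 (0.95), Fgf4 (0.94) and Camsap3 (0.92), and L1td1 by Rttn (0.98), Racgap1 (0.98) and Hsph1 (0.97). Esrrb was nearest to the interferon lambda receptor Ifnlr1 (0.97), Itpka (0.97) and Arhgap8 (0.97). Ranked by Spearman's rho in place of r, 0 of the 3 nearest genes were shared for each of the 5 members, so the names depend on the measure.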

How the data were processed

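RNA of 11 cell populations was measured on 1 Affymetrix mouse gene array each. Values were deposited on a log2 scale after RMA, per the submitters' processing notes (no version named). Array medians lay between 7.19 and 7.27, and the values were used as deposited. Of 28856 probe sets, the platform's table paired 21789 with 1 gene symbol, 1621 with several and 5446 with none; the probe set with the highest mean was kept for each of 19938 genes.

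Groups (8 cassettes, 2 Klf4 constructs, 1 lacZ) were compared in 1 fit over all arrays with limma 3.58.1 (lmFit, eBayes, R 4.3.3), 8 residual degrees of freedom, and p-values adjusted after Benjamini and Hochberg across the whole table; a gene was called below 0.05. The single lacZ array was taken to vary as the constructs of the other groups do. The fit was run on simulated data with equal noise in all groups, which does not check that assumption for lacZ. Alternatives were other eBayes settings, filters, centring, probe set rules, thresholds and each construct left out. Activation by single constructs, likeness and the extension had no test. Promoter windows came from RefSeq tables. The members and gene lists were chosen with earlier results of these data known. Named were all members, the called genes of each list (up to 4 per list and comparison), those activated by at least 2 cassettes (up to 4 per list by rise) and the 3 genes most like each activated member; Dppa2 and Dppa3 were named after their values were seen.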

Additional observations from a re-analysis of the deposited data

Results flagged for a closer look

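Among the members and the other named genes, 4 genes had 1 array that stood far from the other 7 cassettes, by a gap to the nearest array of more than 0.526 of the whole range (Dixon's 95% critical value for 8 samples, which chance exceeds in about 1 of 20 groups). Lin28a, the let-7 regulator, read 11.66 in EB-C5 and at most 8.52 in the other cassettes, against 6.95 (Klf4S) and 6.69 (Klf4L) for Klf4 alone and 6.83 for lacZ. Myc was lowest in EB-C5 at 9.86, where the other cassettes read 10.49 to 10.91, against 9.05 (Klf4S) and 8.65 (Klf4L) for Klf4 alone and 9.54 for lacZ. Whether the EB-C5 cassette supplies Lin28a itself was not tested. Prmt7, the arginine methyltransferase, was highest in OKMS at 10.20, where the other cassettes read 9.11 to 9.53, against 8.97 (Klf4S) and 8.73 (Klf4L) for Klf4 alone and 9.25 for lacZ. Dppa2 was highest in WTSI at 5.63, still below background, as on all 11 arrays. With all named genes searched, some gaps of this size can come from chance alone. Prmt7 was searched for its likeness to Nr0b1, and Dppa2 was named after its values were seen. None of the 8 measured members was so far apart; the widest gap was that of Nr0b1 in OKMS, at 0.477 of its range.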

How the results depend on the processing

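No paired analysis was possible because the labels give no replicate numbers. With each construct left out in turn, 184 to 734 genes were called against lacZ (409 with all arrays), 92 to 3968 for the cassettes against Klf4 alone (2885) and 36 to 268 for Klf4 alone against lacZ (149); among the members the counts were 0 to 1, 0 to 3 and 0. With the compared arrays alone, 184 genes and 0 members were called against lacZ, and 0 genes between Klf4 alone and lacZ by limma, where 6485 genes and 0 members had an unadjusted p under 0.05. A robust prior gave 0 members against lacZ, L1td1 at an adjusted p of 0.0505. A variance trend, leaving out dim genes (which keeps 6 of the 8 members) and centring each array gave 2 members, Nanog beside L1td1, against Klf4 alone. Requiring a 4-fold rise left 17 activated pairs of 64 (0.46% over all genes), with Nr0b1 in 4 cassettes, L1td1 in 5 and Esrrb in 0. None of the other alternatives run (background level, arrays compared with, 1.5-fold rise, probe set rule, centring) moved the 26 pairs by more than 1.5 times, and no called result changed direction. Signal near background limits Zfp42, Dppa5a, Gdf3 and Nr0b1, for which these arrays could miss low expression.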
